A study of Mus musculus with 6 samples.

Results

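The nuclear-encoded subunits of the mitochondrial respiratory chain were described in colonic mucosa of male BALB/c mice with and without a deficiency of the synthetase activity of MTHFD1, a cytosolic folate enzyme. The genes were chosen by name: the platform symbols of the numbered subunits of complex I (Nduf), of succinate dehydrogenase (Sdha to Sdhd), of the Uqcr, Cox4 to Cox8 and Atp5 families, and Cyc1 and Cycs, leaving out names of pseudogenes. For a gene read by several rows of the array table the row with the highest mean was taken. This gave 80 genes of 22180 named genes. They comprise 31 subunits of complex I, 4 of complex II, 8 of complex III, 18 of complex IV and 17 of complex V, with the electron carrier cytochrome c (Cycs) and the supercomplex factor Cox7a2l. Ndufa4 and Ndufa4l2, named after complex I, were placed with complex IV, to which Ndufa4 is now assigned. Uqcr10, Ndufs6, Cox6c, Ndufb2 and Ndufb4 are read only by rows with several symbols and are not among the 80.

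The 6 arrays, 1 per mouse, come from 4 wild-type mice (Mthfd1S+/+, here WT) and 2 heterozygous mice (Mthfd1S+/-), and the labels call them biological replicates. All 6 mice had an intraperitoneal injection of the carcinogen azoxymethane (AOM) at 6 mg/kg. At 1 and 4 weeks after it came 2 cycles of dextran sulfate sodium (DSS, 3%), an agent that damages the gut lining, each lasting 4 days. Mucosa of normal appearance beside tumours was taken 13 weeks after the AOM injection, so no group without AOM and DSS is compared here. The line had at least 10 generations of backcrossing; the age field gives 7 months and the protocol 3 months at injection. Values are log2 signals, each for a transcript cluster (a set of probes for 1 gene), and differences are given throughout as Mthfd1S+/- minus WT on the log2 scale.

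The respiratory chain carries electrons from NADH and succinate to oxygen and uses the energy to pump protons across the inner mitochondrial membrane. Complex I takes electrons from NADH and complex II from succinate, complex III passes them to cytochrome c, and complex IV reduces oxygen. Complex V, the ATP synthase, makes ATP from the proton gradient. The absorptive cells of the colon depend on this chain to oxidise butyrate, the short-chain fatty acid that bacteria supply. Most subunits are encoded in the nucleus, and a small set of core subunits of complexes I, III, IV and V is encoded in mitochondrial DNA.

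Array medians lay between 5.48 and 5.53 on the log2 scale, and arrays correlated at 0.991 to 0.995 across the 23521 rows with a single symbol, which are not independent replicates. All 10 pan-epithelial markers, among them Epcam and Krt8, lay above the 91.1st percentile of mean level. The 16 smooth muscle markers had a median percentile of 96.1, so muscle RNA was also well represented. Mthfd1 itself read 7.64, 7.63, 7.50 and 7.75 in the WT and 7.96 and 7.63 in the Mthfd1S+/- mice, and the labels do not say whether the allele alters this transcript. In bulk mucosa fewer cells of a type and less RNA per cell cannot be told apart.

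Respiratory chain transcripts were at nearly the same level in both genotypes. Of the 80 genes, 42 had a difference above 0 and 38 below 0, with a median of 0.0022 where that of all tested rows was 0.012. The differences ran from -0.37 for Cox7c to 0.12 for Ndufa13, and 78 of the 80 lay within 0.2 of 0, as did 85.5% of all tested rows. The 95% intervals of all 80 lay inside a 1.5-fold change in either direction, against 91.3% of all tested rows and 93.1% of tested rows above the median level. The median half-width of those intervals was 0.21 for the 80 genes. Smaller differences than that could not be resolved with these 6 mice.

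No respiratory chain gene passed Benjamini-Hochberg adjustment in limma at 0.05, nor did any of the 23521 rows (0%), and the adjusted p-values of the 80 ran from 0.837 to 0.9997. At an unadjusted p under 0.05 there was 1 gene of the 80, Cox7c, which was lower. Of all tested rows 5.79% passed that threshold, 2.44% lower and 3.36% higher. Unmoderated least squares likewise gave 0 genes past adjustment, with 4 of the 80 at an unadjusted p under 0.05, where 5.19% of all tested rows passed that threshold in the same fit. The groups did not overlap for 9 genes, 4 higher and 5 lower in the Mthfd1S+/- mice, where 14% of all tested rows did not overlap (7.96% higher and 6.04% lower).

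**Figure D1:**
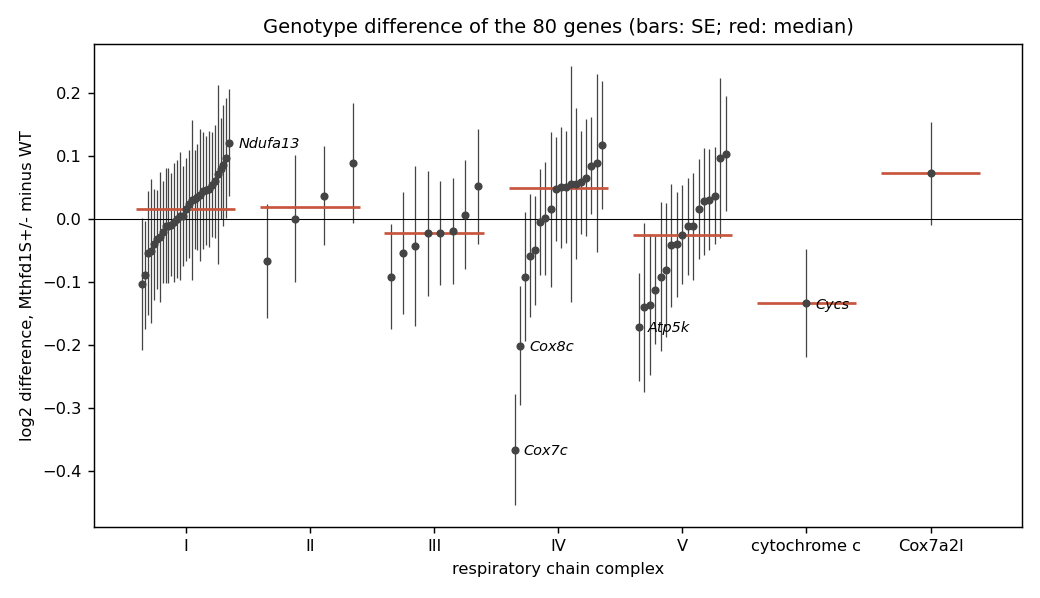
Log2 difference, Mthfd1S+/- minus WT, of each of the 80 genes (points, with the limma standard error as bars), arranged by complex and sorted within it; red lines are medians. The medians lie between -0.025 and 0.048 in complexes I to V, and Cox7c at -0.37 lies apart from the other genes.

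By complex, the median difference was 0.015 in complex I, 0.019 in complex II, -0.023 in complex III, 0.048 in complex IV and -0.025 in complex V. These medians did not hold their sign when single mice were left out. Without the first Mthfd1S+/- mouse they were -0.031, -0.054, -0.068, -0.021 and -0.047 in the same order, all below 0. Without the second they were above 0 in each complex, up to 0.069 in complex IV. With the 8 tissue-restricted isoforms left out, the complex IV median was -0.0023.

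Complex I, the NADH dehydrogenase, has a peripheral arm in the matrix that carries the flavin and iron-sulfur clusters, and a membrane arm that pumps protons. The 6 measured core subunits of the peripheral arm had differences of -0.089 to 0.085, its 8 accessory subunits -0.051 to 0.059, and the 17 membrane arm subunits -0.10 to 0.12. Ndufa13, a membrane arm subunit also known as Grim19, read 8.70, 8.79, 8.62 and 8.71 in the WT group, here and below from mouse 1 to mouse 4, and 8.83 and 8.82 in the Mthfd1S+/- group. Both Mthfd1S+/- mice lay just above the highest WT mouse, with a difference of 0.12 ± 0.084 (SE, limma adjusted p = 0.888, exact permutation p = 0.2).

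Ndufs7, a core subunit that carries the last iron-sulfur cluster before ubiquinone, stood at 10.08, 10.03, 10.00 and 10.08 in WT and at 10.16 and 10.10 in Mthfd1S+/- mucosa. It was the other complex I gene whose groups did not overlap, by a margin smaller than the spread between WT mice (difference 0.079 ± 0.080). Ndufv2, which carries the iron-sulfur cluster beside the flavin site, read 9.75, 9.79, 9.67 and 9.68 in WT and 9.69 and 9.58 in Mthfd1S+/- mice. Its groups overlapped (-0.089 ± 0.085, adjusted p = 0.918). Ndufb6, of the membrane arm, had the lowest difference of the complex at -0.10 ± 0.11.

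Complex II, succinate dehydrogenase, is the complex with no subunit in mitochondrial DNA and is also an enzyme of the tricarboxylic acid cycle. Its flavoprotein Sdha read 10.50, 10.49, 10.54 and 10.55 in WT and 10.67 and 10.37 in Mthfd1S+/- mucosa. The latter mice lay above and below all WT mice. The iron-sulfur subunit Sdhb read 9.31, 9.30, 9.25 and 9.29 in WT and 9.35 and 9.29 in Mthfd1S+/- mucosa. For the membrane anchor Sdhc the values were 9.48, 9.50, 9.61 and 9.39 in WT and 9.51 and 9.66 in Mthfd1S+/- mice. The other anchor, Sdhd, stood at 10.00, 9.89, 9.80 and 9.88 in WT and 9.88 and 9.77 in Mthfd1S+/- mice. Differences were 0.00036 for Sdha, 0.037 for Sdhb, 0.089 for Sdhc and -0.067 for Sdhd, each smaller than its standard error.

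Complex III, the cytochrome bc1 complex, hands electrons to cytochrome c through the Rieske protein Uqcrfs1 and cytochrome c1, encoded by Cyc1. Uqcrfs1 read 7.47, 7.34, 7.24 and 7.28 in WT and 7.35 and 7.21 in Mthfd1S+/- mice (difference -0.054 ± 0.096, adjusted p = 0.958). Cyc1 read 9.22, 9.20, 9.08 and 9.13 in WT and 9.26 and 9.01 in Mthfd1S+/- mice, so that the latter were again the highest and the lowest of the 6. The core protein Uqcrc1 did the same, at 10.83, 10.78, 10.78 and 10.83 in WT and 10.97 and 10.74 in Mthfd1S+/- mucosa (0.051 ± 0.091, adjusted p = 0.958). The small subunit Uqcrq read 7.09, 7.14, 7.10 and 6.99 in WT and 6.97 and 7.01 in Mthfd1S+/- mice (-0.092 ± 0.083, adjusted p = 0.914). Without the first Mthfd1S+/- mouse the difference of Uqcrc1 was -0.062, and without the second that of Uqcrfs1 was 0.015.

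Cytochrome c, which shuttles electrons from complex III to complex IV and also triggers apoptosis once released from mitochondria, read below all WT mice in both Mthfd1S+/- mice. Its brightest row read 11.22, 11.22, 11.17 and 11.06 in WT and 11.01 and 11.05 in Mthfd1S+/- mice, and WT mouse 4 lay close to them. The difference was -0.13 ± 0.086 (adjusted p = 0.880, exact permutation p = 0.133). Cycs is read by 5 rows, of which 2 hold identical values, and all 5 had differences below 0, from -0.25 to -0.13. The brightest row had the smallest difference of these, and in the dimmest the groups overlapped. The row at -0.25 had an unadjusted p of 0.0497 in limma (adjusted p = 0.837). Whether Cycs counts among genes under 0.05 thus depends on the row taken. Cytochrome c has many processed pseudogenes, and which copies these rows read is not given in the sources used here.

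Complex IV, cytochrome c oxidase, held the gene with the largest difference of the 80. Cox7c, a small subunit present in all tissues, read 5.10, 5.28, 5.19 and 5.23 in WT and 4.87 and 4.80 in Mthfd1S+/- mice, and the groups were clearly apart. The means were 5.20 ± 0.077 (SD, n = 4) and 4.83 ± 0.052 (SD, n = 2), a difference of -0.37 ± 0.087 (SE; 95% interval -0.57 to -0.17), or 1.29-fold. Its unadjusted p in limma was 0.0028 and its adjusted p 0.837; the exact permutation p of 0.0667 is the smallest that the 15 splits of 6 arrays can give. Leaving out single mice moved the difference between -0.40 and -0.33. The Cox7c row lies at the 32.4th percentile of mean level, and detection calls were not used here, so its distance from background is unknown.

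The other 8 general subunits of complex IV had differences between -0.091 (Cox7b) and 0.058 (Cox6a1). Cox4i1, whose product joins the catalytic core early in assembly, read 10.34, 10.34, 10.22 and 10.26 in WT and 10.42 and 10.26 in Mthfd1S+/- mice. Cox6a1 read 13.00, 12.96, 12.92 and 12.90 in WT and 13.04 and 12.97 in Mthfd1S+/- mice. Cox6b1 (9.70 to 9.85 over the 6 mice), Cox7a2 (10.05 to 10.23) and Cox8a (11.58 to 11.72) had overlapping groups. Ndufa4 ranged from 10.17 to 10.43 with a difference of 0.050.

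Several complex IV subunits have an isoform that is restricted to certain tissues, and these isoforms were examined beside their general partners. Cox7a1, the heart and muscle isoform of Cox7a2, read 8.57, 8.38, 8.58 and 8.60 in WT and 8.76 and 8.42 in Mthfd1S+/- mice. Its values in the Mthfd1S+/- mice lay 0.35 apart, against 0.0053 for Cox7a2. Cox8b, of muscle and brown fat, ranged from 4.19 to 4.80 in WT and stood at 4.69 and 4.31 in Mthfd1S+/- mice, and Cox6a2, of striated muscle, ranged from 5.11 to 5.60 in WT and stood at 5.53 and 5.29. The lung isoform Cox4i2 stood at 5.40 to 5.72 in WT and at 5.41 and 5.70 in Mthfd1S+/- mice. Cox6b2, of testis, ranged from 5.86 to 6.08 over the 6 mice.

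Among the same isoforms, Ndufa4l2, induced by hypoxia, read 5.57, 5.60, 5.80 and 5.78 in WT and 5.74 and 5.86 in Mthfd1S+/- mice (0.12 ± 0.10, adjusted p = 0.907). Cox8c, a testis isoform, read 4.15, 3.95, 4.15 and 4.17 in WT and 3.91 and 3.89 in Mthfd1S+/- mice (-0.20 ± 0.094, adjusted p = 0.837), with WT mouse 2 close to the latter. Cox7b2, another testis isoform, differed by 0.084 without overlap at a level of 2.59 to 2.69, in the lowest part of the array's range. Of the 8 restricted isoforms, 7 had differences above 0 (median 0.061), and all but Cox7a1 lay near or below the median level of tested rows. Markers of brown fat and striated muscle, of which 12 were measured, had per-mouse means of -0.054 to 0.014 in WT and 0.070 and 0.050 in Mthfd1S+/- mice on centred values; their part in these isoforms' values was not tested. Cox7a2l, the supercomplex factor related to Cox7a2, ranged from 7.33 to 7.48 with a difference of 0.072.

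**Figure D2:**
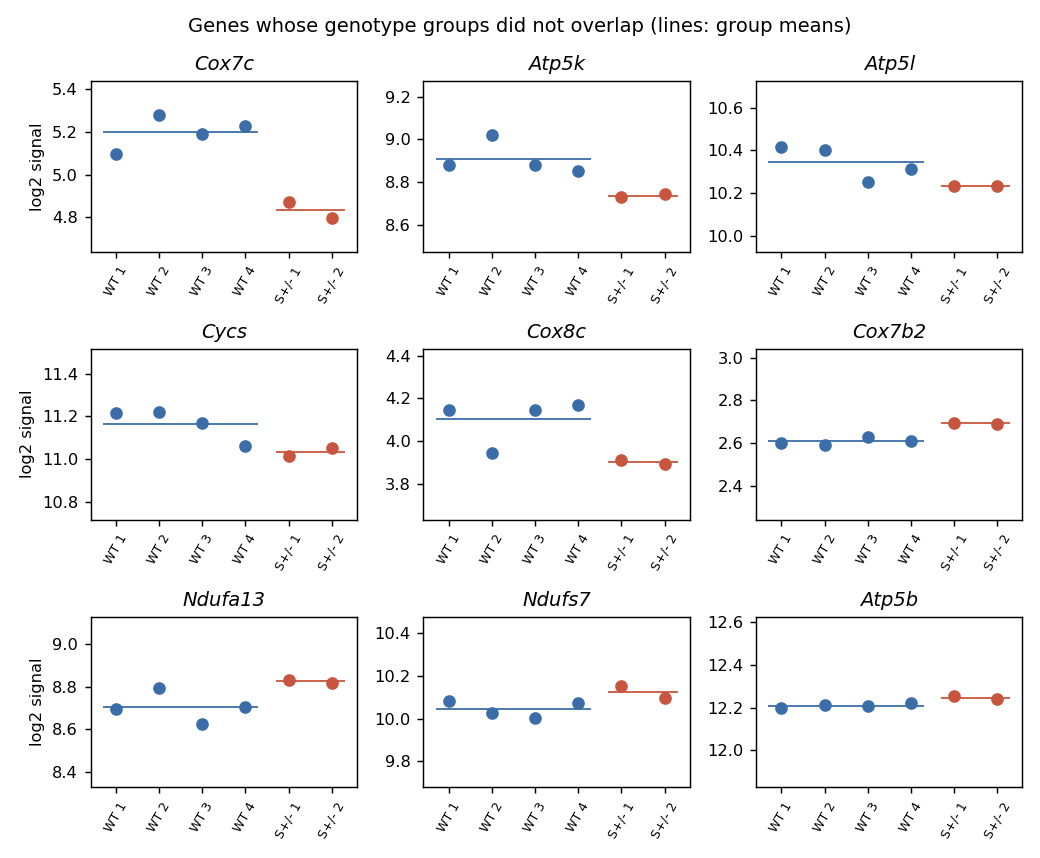
Log2 signal in each mouse (points; blue WT, red Mthfd1S+/-, written S+/-; lines are group means) for the 9 genes whose groups did not overlap, each panel spanning the same height. Cox7c shows the widest gap, while for Ndufs7, Cycs, Atp5l, Ndufa13 and Cox8c the gap is small against the spread between WT mice.

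Complex V consists of the catalytic F1 part and the membrane part Fo, joined by a peripheral stalk, with a ring of c subunits that turns in the membrane. Of the 9 stalk and Fo genes outside the ring 8 had differences below 0, with a median of -0.042, where 46.0% of all tested rows were below 0. Atp5k, encoding subunit e, through which synthase complexes pair along cristae, read 8.88, 9.02, 8.88 and 8.85 in WT and 8.73 and 8.74 in Mthfd1S+/- mice. The groups did not overlap (-0.17 ± 0.086, adjusted p = 0.855, exact permutation p = 0.0667). Its partner subunit g, Atp5l, read 10.42, 10.40, 10.25 and 10.31 in WT and 10.23 and 10.23 in Mthfd1S+/- mice, just under the lowest WT mouse (-0.11 ± 0.086, adjusted p = 0.895).

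Other small Fo proteins varied as much between WT mice as between genotypes. Atp5mpl read 10.23, 10.38, 9.96 and 9.96 in WT and 9.94 and 10.04 in Mthfd1S+/- mice. Atp5md read 11.52, 11.48, 11.21 and 11.20 in WT and 11.29 and 11.23 in Mthfd1S+/- mice. For both, WT mice 1 and 2 were the highest of the 6 and WT mice 3 and 4 lay with the Mthfd1S+/- mice. Over the 9 stalk and Fo genes, the WT mice had means of centred values of 0.062, 0.12, -0.046 and -0.044, and the Mthfd1S+/- mice of -0.044 and -0.046. This is the same order.

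The F1 genes had differences of -0.14 to 0.10. Atp5b, the catalytic beta subunit, was the steadiest gene of the 80 between WT mice, at 12.20, 12.21, 12.21 and 12.22, and stood at 12.25 and 12.24 in Mthfd1S+/- mice. Its groups did not overlap, yet the difference was only 0.037 ± 0.076. Atp5e, the epsilon subunit, read 8.78, 8.78, 8.56 and 8.49 in WT and 8.58 and 8.45 in Mthfd1S+/- mice (-0.14 ± 0.11, adjusted p = 0.904), while its dimmer row had a difference of 0.075. The c ring is encoded by 3 genes for the same mature protein. Atp5g1 ranged from 5.78 to 6.20 (0.097), Atp5g2 from 11.39 to 11.51 (0.030) and Atp5g3 from 9.34 to 9.65 (-0.082), all with overlapping groups.

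The 2 Mthfd1S+/- mice lay apart from each other in the genes for the core and catalytic subunits. These are the 17 genes of the peripheral arm core of complex I, Sdha and Sdhb, Uqcrc1 and Uqcrc2, Uqcrfs1 and Cyc1, and the F1 part. In 16 of the 17 the first Mthfd1S+/- mouse was above the second, with a median gap of 0.15. The same order held in 35 of the other 63 genes, among them all 3 c ring genes and 7 of the 9 general subunits of complex IV, and in 52.9% of all tested rows. In 7 of the 17 the first was the highest and the second the lowest of the 6 mice, compared with 2 of the other 63 genes and 4.69% of all tested rows. Enzymes of the tricarboxylic acid cycle, which are not respiratory chain genes, showed the same order, so it was not particular to the 17. Of 13 such enzymes 12, all but Idh2, were higher in the first Mthfd1S+/- mouse, and 4 (Cs, Dld, Fh1 and Sucla2) had the first mouse highest and the second lowest of the 6. The mean of centred values over these enzymes was 0.11 in the first and -0.018 in the second. Grouping the roles in this way was chosen after the values were seen, and with 2 mice no test of it was made.

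Ndufv1, which holds the flavin that accepts electrons from NADH, read 8.99, 9.02, 8.99 and 8.98 in WT and 9.22 and 8.95 in Mthfd1S+/- mice, a gap of 0.27 where the WT mice spanned 0.035. For Ndufs1, the largest subunit of complex I, the gap was 0.29 against a WT span of 0.13, and for Sdha it was 0.31 against 0.055. Ndufa10, an accessory subunit of the membrane arm outside this set, had a gap of 0.26 against a WT span of 0.078. Its difference was 0.096 ± 0.096 (adjusted p = 0.923) and became -0.034 without the first Mthfd1S+/- mouse. Among small subunits the order was turned in Uqcrh (-0.33) and Ndufb3 (-0.27), where the second mouse was the higher.

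**Figure D3:**
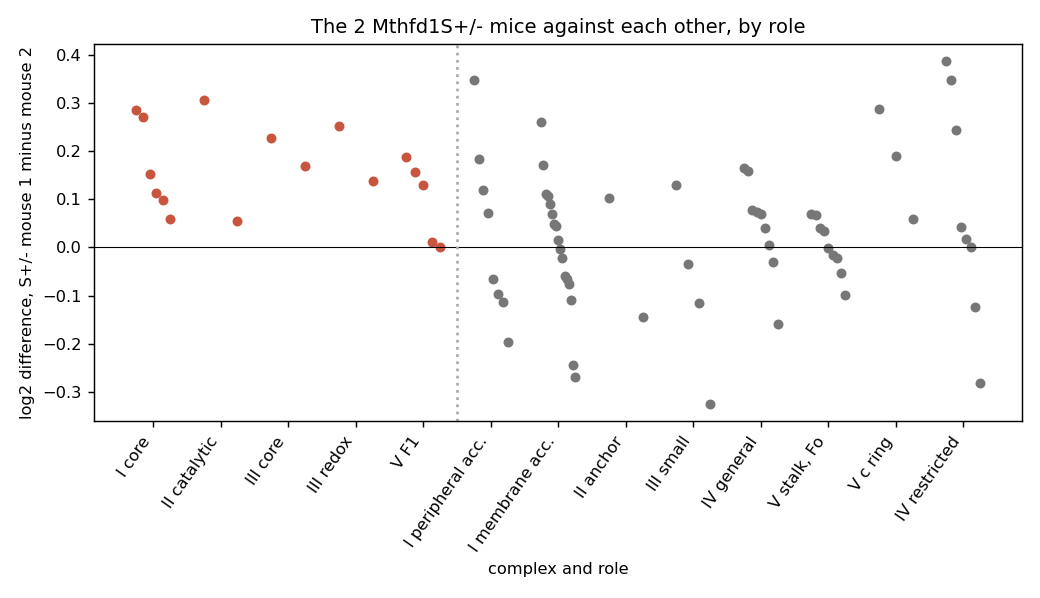
Log2 signal of Mthfd1S+/- mouse 1 minus that of mouse 2 for each gene with a role in complexes I to V, by complex and role; Ndufa4, Cycs and Cox7a2l are not drawn. The 17 core, catalytic, redox and F1 genes (red, left of the dotted line) lie at or above 0, except for Atp5c1 just below it, while the other roles (grey) spread to both sides.

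Across the 6 mice the 17 genes had a mean pairwise Pearson r of 0.46, against 0.12 among the other 63 genes and 0.0036 among all tested rows. These correlations rest on 6 arrays that the genes share and are given as a description. The 17 were grouped after the values were seen. The gap between the Mthfd1S+/- mice enters the correlations, so they are no separate support for it. By role the mean pairwise r was 0.499 in the complex I core, 0.53 in the stalk and Fo group and 0.073 in the membrane arm of complex I. Over the 17 genes the WT mice had means of centred values of 0.025, 0.023, -0.045 and -0.0099, and the Mthfd1S+/- mice of 0.080 and -0.073. The latter thus lay outside the WT mice on opposite sides.

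Some of the marker lists of cell types also set these 2 mice apart. The smooth muscle mean was -0.066 in the first and 0.41 in the second Mthfd1S+/- mouse, against -0.25 to 0.097 in WT. The pan-epithelial mean was -0.013 in the first and -0.10 in the second, against -0.012 to 0.064 in WT, with 9 of 10 markers below 0 in the genotype difference. The absorptive colonocyte mean was 0.038 in the first and -0.097 in the second, against -0.021 to 0.094 in WT. The goblet cell mean had the opposite order, at -0.36 in the first and -0.014 in the second, against -0.15 to 0.44 in WT. The fibroblast mean was 0.058 and 0.22, against -0.27 to 0.095. The adipocyte mean was nearer alike in the 2 mice, at -0.47 and -0.39, against -0.33 to 1.01 in WT. In the genotype difference all 16 smooth muscle, 10 fibroblast and 8 enteric neuron and glia markers were above 0. Of 9 adipocyte markers 7 were below 0, with a median of -0.53. Of all tested rows 54.0% were above 0. The part of tissue composition in the respiratory chain values was not tested.

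**Figure D4:**
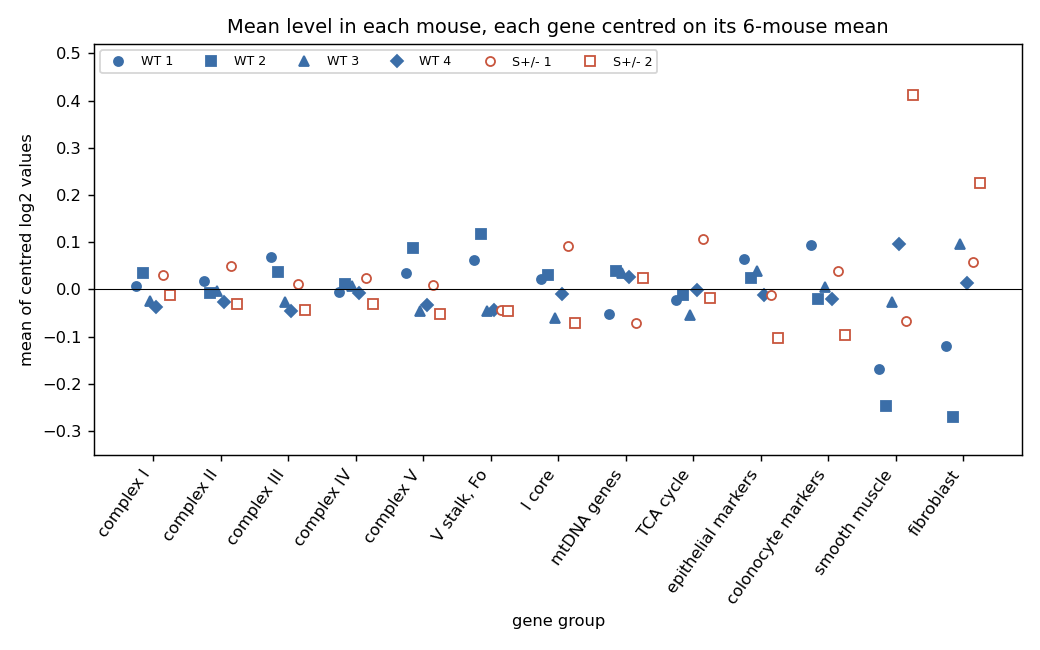
Mean of log2 values in each mouse, with each gene centred on its mean over the 6 mice, for complexes I to V, 2 role groups, 2 further mitochondrial lists and 4 marker lists (filled blue WT, open red Mthfd1S+/-, written S+/-). The complex means stay between -0.052 and 0.089, whereas the smooth muscle markers reach 0.41 in the second Mthfd1S+/- mouse.

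The subunits encoded in mitochondrial DNA had small differences, most of them below 0. Of the 10 measured, 9 had differences below 0 and 1 above, with a median of -0.041, where 46.0% of all tested rows were below 0. At an unadjusted p under 0.05 in limma there were 0. They lay at the top of the array's range: COX1 read 13.15, 13.19, 13.18 and 13.18 in WT and 13.15 and 13.19 in Mthfd1S+/- mice. ND6, the gene on the other strand, had the lowest difference at -0.076. Their mean was lowest in the first Mthfd1S+/- mouse (-0.071) and in WT mouse 1 (-0.052), an order unlike that of the nuclear core genes.

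Assembly factors, which build the complexes without staying in them, gave no gene at an unadjusted p under 0.05 in either direction. Median differences were -0.044 for the 13 factors of complex I, 0.022 for the 3 of complex II, 0.019 for the 6 of complex III, -0.015 for the 16 of complex IV and 0.038 for the 4 of complex V. Foxred1, a complex I factor, had the smallest p among them, with a difference of -0.25 ± 0.14. The 15 regulators of respiratory genes had a median of 0.071 and also 0 at an unadjusted p under 0.05. Ppargc1a, the coactivator that drives mitochondrial biogenesis, read 7.68, 7.99, 8.32 and 8.32 in WT and 8.70 and 8.29 in Mthfd1S+/- mice, with overlap (0.42 ± 0.198, limma adjusted p = 0.839). Yy1, another regulator in the list, read 8.25 to 8.36 in WT and 8.45 and 8.52 in Mthfd1S+/- mice (0.16 ± 0.081, limma adjusted p = 0.855).

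Lists of genes for the steps that feed the chain, which include regulators of those steps, gave 2 genes at an unadjusted p under 0.05 in limma. Of all tested rows 5.79% passed that threshold. Of 13 enzymes of the tricarboxylic acid cycle 10 had differences above 0 (median 0.060), with 1 higher and 0 lower at an unadjusted p under 0.05. That gene was Idh2, the mitochondrial NADP-linked isocitrate dehydrogenase, at 9.04, 9.20, 9.09 and 9.16 in WT and 9.31 and 9.34 in Mthfd1S+/- mice (0.21 ± 0.085, limma adjusted p = 0.837). Of 11 genes of pyruvate entry and its control 1 was higher at that threshold, the regulator Pdk4, with a difference of 0.62 ± 0.14. Among 8 carriers and channels 0 were, and the adenine nucleotide carrier Slc25a4 had 0.23 ± 0.11.

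Promoters of these genes were compared as sequences, since nuclear respiratory factor 1 (NRF1) and the ETS factor GABP are known to bind many of them. A window of 300 bases around the annotated start was at hand for 65 of the 80 genes (RefSeq, GRCm38.p6), and matches were sought on both strands. The NRF1 letters GCGCANGCG were held by 19 of the 65 genes (29.2%), against 7.03% of 27025 genes with such a window. The ETS letters CCGGAAG were held by 17 (26.2% against 9.93%), the YY1 letters AANATGGCG by 9 (13.8% against 2.76%) and the ERR letters TCAAGGTCA by 2 (3.08% against 0.466%). The SP/KLF letters GGGCGGGG were held by 12 (18.5% against 19.6%). A match is a run of letters and not evidence of binding. Median genotype differences were 0.00036 in genes with the NRF1 letters and 0.013 in those without, and -0.012 and 0.019 for the ETS letters.

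These windows run 5′ to 3′ along each gene, in lower case with every match to a searched run in capitals; overlapping matches merge. They are shown for 3 genes that read below all WT mice in both Mthfd1S+/- mice (Atp5k, Cycs and Cox7c) and for 2 in which the latter lay on opposite sides of the WT mice (Sdha and Uqcrc1). The Atp5k window lies at chr5:108434350-108434649 (- strand). The Cycs window lies at chr6:50566520-50566819 (- strand). The Cox7c window lies at chr13:86046746-86047045 (- strand). The Sdha window lies at chr13:74350191-74350490 (- strand). The Uqcrc1 window lies at chr9:108936398-108936697 (+ strand).
Atp5k: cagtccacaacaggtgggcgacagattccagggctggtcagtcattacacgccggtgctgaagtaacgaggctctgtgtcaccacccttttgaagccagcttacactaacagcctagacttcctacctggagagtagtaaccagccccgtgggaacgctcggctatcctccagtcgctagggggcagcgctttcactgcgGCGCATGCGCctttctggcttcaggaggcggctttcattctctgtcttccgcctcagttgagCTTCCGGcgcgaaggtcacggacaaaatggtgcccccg
Cycs: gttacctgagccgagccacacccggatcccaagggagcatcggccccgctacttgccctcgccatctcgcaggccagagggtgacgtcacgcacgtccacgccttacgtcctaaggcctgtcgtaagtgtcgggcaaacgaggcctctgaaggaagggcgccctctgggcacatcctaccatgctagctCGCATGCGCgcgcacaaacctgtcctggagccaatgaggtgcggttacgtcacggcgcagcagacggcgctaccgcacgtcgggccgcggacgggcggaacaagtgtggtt
Cox7c: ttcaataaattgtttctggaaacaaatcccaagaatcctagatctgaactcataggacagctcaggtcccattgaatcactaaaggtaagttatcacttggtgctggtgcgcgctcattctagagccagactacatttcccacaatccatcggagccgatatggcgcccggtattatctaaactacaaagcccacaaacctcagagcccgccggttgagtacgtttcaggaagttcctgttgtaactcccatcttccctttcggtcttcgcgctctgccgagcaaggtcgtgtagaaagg
Sdha: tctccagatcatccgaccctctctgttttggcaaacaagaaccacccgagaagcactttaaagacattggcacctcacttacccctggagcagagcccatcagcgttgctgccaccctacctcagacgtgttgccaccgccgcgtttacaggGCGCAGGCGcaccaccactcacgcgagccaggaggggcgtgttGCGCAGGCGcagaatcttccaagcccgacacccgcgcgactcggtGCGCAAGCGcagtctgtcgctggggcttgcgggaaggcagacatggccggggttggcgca
Uqcrc1: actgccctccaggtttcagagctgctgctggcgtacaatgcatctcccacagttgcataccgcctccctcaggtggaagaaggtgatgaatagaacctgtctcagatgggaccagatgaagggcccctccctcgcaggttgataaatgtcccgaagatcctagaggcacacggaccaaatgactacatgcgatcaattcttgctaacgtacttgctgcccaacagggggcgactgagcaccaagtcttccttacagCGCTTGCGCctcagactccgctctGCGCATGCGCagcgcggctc

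In the Atp5k window the NRF1 letters begin at base -50 from the start site and, on the other strand, at base -49, and ETS letters begin at base 13. Cycs holds the NRF1 letters at base -61. Sdha holds them 3 times, at bases -98, -55 and -10, and Uqcrc1 holds them at bases 7 and 31, the latter site also matching on the other strand. The window of Cox7c holds none of the 5 searched runs, which says only that these letters are not in this window. Among the windows shown the NRF1 letters are in those of Atp5k, Cycs, Sdha and Uqcrc1. The window of Ndufv1, for which the 2 Mthfd1S+/- mice also lay on opposite sides of the WT mice, lacks them. Whether the letters bear on the values was not tested.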

How the data were processed

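RNA from colonic mucosa was hybridised to Affymetrix Mouse Gene 2.0 ST arrays, with 1 array for each of 6 mice. The authors deposited log2 values per transcript cluster and array. Per the submitters' processing notes they used Affymetrix Expression Console. Version, algorithm, background correction and genome build: not given in the sources used here. That values are log2 follows from their range, 1.06 to 13.5. A shift of all genes together would be lost in normalization.

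Of 41345 rows, 23521 had exactly 1 platform symbol and were tested; 1814 had several and 16010 none. The rule matched 93 rows and 80 genes, and 10 genes had several rows, of which 4 had rows of opposite sign. The genotype effect was fitted in limma 3.58.1 under R 4.3.3 (lmFit, then eBayes; two-sided, with no covariate; Benjamini-Hochberg over the 23521 rows; 4 residual and 4.35 prior degrees of freedom), checked on simulated data. Exact permutation tests were two-sided over 15 splits. The number of arrays limits the precision (median standard error 0.11). Genes set to be named were the 3 per complex with the smallest p, complex II, Cycs, Cyc1, isoform sets and any gene at an unadjusted p under 0.05. Some of them, such as Ndufa10 and part of the isoform sets, are given by range, gap or difference only. Ndufs7, Atp5b, Cox7b2, Ndufs1, Ndufs3, Ndufv1, Ndufa5, Ndufb6, Uqcrh, Ndufb3, Atp5c1, Atp5mpl and Atp5md were added after their values were seen. The genes and lists were chosen with earlier results of these data known. Alternatives were other scalings, row choices, priors and covariates, and leaving out each mouse.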

Additional observations from a re-analysis of the deposited data

Results flagged for a closer look

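In 2 of 38 sets of 4 WT values that were examined, 1 mouse lay farther from the others than Dixon's limit for 4 values allows; chance gives about 1 in 20. WT mouse 2 read 8.38 for Cox7a1, 0.19 below the next WT mouse, and 3.95 for Cox8c, 0.20 below the next. Both are tissue-restricted isoforms of complex IV, and WT mouse 2 also had the lowest smooth muscle mean of the 6 mice, at -0.25. The second Mthfd1S+/- mouse had the highest, at 0.41, and read 8.42 for Cox7a1 and 3.89 for Cox8c. The part of muscle in these values was not tested.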

How the results depend on the processing

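No respiratory chain gene and no row passed adjustment under any alternative. At an unadjusted p under 0.05, 0 genes were higher except with unmoderated least squares (2). The count lower was 2 with median-centred arrays, with an intensity trend, with unmoderated least squares and with a replicate block, and 0 among rows above the median level, which leave out Cox7c; it was 1 to 2 when single mice were left out. Cox7c was the gene or one of the genes called in every setting that kept its row. The complex II median was -0.0089 with median-centred arrays. The complex IV median was 0.021 with median-centred arrays, -0.0079 with the replicate block, 0.019 with the identifier letter as a covariate, 0.031 with Ndufa4 and Ndufa4l2 under complex I and -0.0023 without restricted isoforms. Atp5e was 0.075 with the lowest-mean row. Leaving out single mice gave medians of -0.033 to 0.016 for all genes, -0.031 to 0.021 for complex I, -0.054 to 0.040 for II, -0.068 to 0.040 for III, -0.021 to 0.069 for IV and -0.047 to 0.0011 for V. The differences ran from -0.034 to 0.23 for Ndufa10, -0.062 to 0.16 for Uqcrc1 and -0.12 to 0.015 for Uqcrfs1. Where a cause is not given it was not tested. The labels give both groups replicate numbers 1 and 2 but no shared litter or day. Deviations of same-numbered mice from their group means correlated at 0.12 and -0.044. The deviations of 2 Mthfd1S+/- mice mirror each other, so these values cannot decide whether same-numbered mice share more than a number. The block raised the rows at an unadjusted p under 0.05 from 1363 to 2331.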
